A study of Homo sapiens with 6 samples.

Results

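The 9 genes described here are BASP1, MYC, the MYC partner MAX, the MAX-binding antagonists MXD1, MXD3, MXD4, MXI1 and MNT, and MLXIP, which encodes MondoA. They were taken by symbol from the 57773 gene rows of the count table, and all 9 were among the 16290 genes that passed the filter on low counts. The genes were chosen by their roles in the MYC network with the measured response to Apatinib already known, and BASP1 in particular was selected on its higher counts after treatment. Their levels and fold changes are therefore a description and carry no test.

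RNA was sequenced from SW872, an established human liposarcoma cell line, after 24 h with 18 μM Apatinib, and from control SW872 cells. Apatinib is a small-molecule inhibitor of the VEGFR2 tyrosine kinase. Each group had 3 replicates. Both groups came from 1 line in culture, with 1 dose and 1 time, so the values describe this line only. The table holds RNA and not MYC protein, and RNA of a whole culture cannot tell fewer cells of a kind from less RNA per cell.

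MYC is a transcription factor that binds DNA at E-boxes, the motif CACGTG, as a dimer with MAX, and is known for driving ribosome production, metabolism and cell division. MXD1, MXD3, MXD4, MXI1 and MNT compete for MAX and bring SIN3 and histone deacetylase corepressors to the same sites. BASP1 encodes a myristoylated calmodulin-binding protein that is known to be silenced in cells transformed by MYC and to inhibit that transformation, and MondoA is a sugar-sensing relative that pairs with MLX instead of MAX.

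MNT and MXD4 hold an E-box themselves just before their start, and these stretches are shown because they are the MYC and MAX recognition letters inside the network. RefSeq promoters (GRCh38.p14, 250 bases before to 50 after each start) were found for 8 of the 9 genes, MYC being the one with no entry, and 2 of their 11 promoters contained CACGTG. The motif reads the same on both strands and was present in 7.26% of the 35116 promoters in the table. Counted per gene, it was present in 12.5% of the 10291 tested genes with an entry. The MNT stretch is chr17:2401236-2401265 on the minus strand, with the motif beginning 193 bases before the start, and the MXD4 stretch is chr4:2262330-2262359 on the minus strand, with the motif beginning 238 bases before the start. The E-box is in capitals.
MNT: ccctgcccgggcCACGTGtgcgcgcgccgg
MXD4: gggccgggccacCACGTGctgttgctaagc

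The BASP1 promoter, shown because BASP1 was the member with the higher counts, contained no CACGTG. The 250 bases before its start, chr5:17216573-17216822 on the plus strand, held 2 matches to the looser form CANNTG, given in capitals. CANNTG was present in 61.8% of all such upstream windows. A match is a description of the letters and not of binding.
BASP1: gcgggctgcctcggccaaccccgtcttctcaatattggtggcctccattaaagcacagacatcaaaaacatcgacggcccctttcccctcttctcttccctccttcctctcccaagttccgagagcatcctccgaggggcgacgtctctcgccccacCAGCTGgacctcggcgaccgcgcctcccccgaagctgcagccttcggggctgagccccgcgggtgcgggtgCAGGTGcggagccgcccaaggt

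BASP1 (ENSG00000176788) had 80.0, 77.8 and 76.1 CPM (counts scaled to the size of each library) in Apatinib replicates 1, 2 and 3, and 30.2, 33.8 and 29.6 CPM in control replicates 1, 2 and 3. All 3 Apatinib replicates lay far above all 3 controls, and the spread within each group was small. The means were 78.0 ± 1.96 and 31.2 ± 2.27 CPM (SD, n = 3), a 2.50-fold difference (1.32 on the log2 scale, SE 0.119). Behind these values stood 1330 to 1379 raw counts per Apatinib replicate and 524 to 646 per control. The log2 fold change stayed between 1.29 and 1.38 when any single replicate was left out. An antisense gene, BASP1-AS1, shares 75 exon bases with BASP1 in GENCODE 29, and whether the counting used strand is not given in the sources used here.

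MYC (ENSG00000136997) had 35.8, 70.1 and 29.3 CPM in Apatinib replicates 1, 2 and 3, and 42.3, 38.7 and 47.2 CPM in the controls. Apatinib replicate 2 was the highest of the 6 samples, while the other two Apatinib replicates were the lowest. The means were 45.1 ± 21.9 and 42.7 ± 4.25 CPM (SD, n = 3). Apatinib minus control was 0.08 on the log2 scale (SE 0.260). Without Apatinib replicate 2 it was -0.39 (SE 0.141), and it stayed positive when any other single replicate was left out. It was 0.31 without Apatinib replicate 3, 0.22 without Apatinib replicate 1 and 0.0065 without control replicate 2. FPKM values, which are scaled to transcript length, showed the same order, with 10.2, 21.5 and 8.68 in the Apatinib replicates and 13.3, 11.6 and 13.7 in the controls.

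MAX (ENSG00000125952), the obligate partner of MYC and of the antagonists, had 51.5, 57.2 and 44.4 CPM with Apatinib and 46.8, 44.7 and 44.8 CPM in the controls. The groups overlapped, since Apatinib replicate 3 was the lowest of the 6 samples. Its log2 fold change was 0.17 (SE 0.129), with 0.08 when Apatinib replicate 2 and 0.26 when Apatinib replicate 3 was left out.

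**Figure D1:**
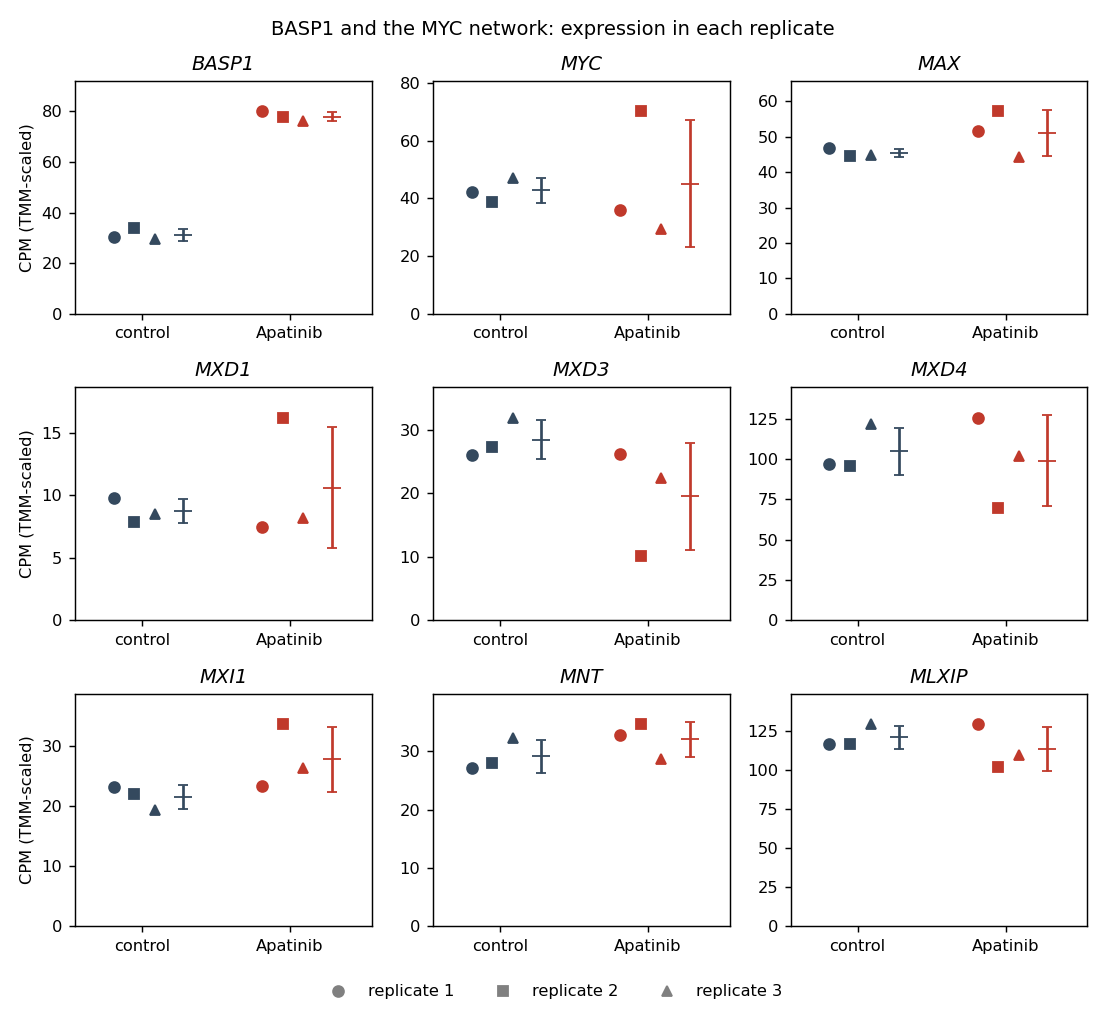
Expression of the 9 genes in each replicate, in TMM-scaled CPM on a linear axis from 0, with 1 panel per gene and its own scale. Dots, squares and triangles are replicates 1, 2 and 3 of the control (dark blue) and Apatinib (red) groups, and bars are the mean ± SD (n = 3). BASP1 is at 76.1 to 80.0 CPM with Apatinib and 29.6 to 33.8 CPM without, whereas in the MYC panel Apatinib replicate 2 stands apart at 70.1 CPM.

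Among the antagonists, MXI1 was the one whose groups did not overlap in CPM. MXI1 (ENSG00000119950), which encodes a MAX-binding repressor, had 23.3, 33.6 and 26.2 CPM with Apatinib and 23.1, 21.9 and 19.2 CPM in the controls. The lowest Apatinib value and the highest control value were almost the same. Its log2 fold change was 0.37 (SE 0.161), with 0.21 (SE 0.138) without Apatinib replicate 2 and 0.48 (SE 0.161) without Apatinib replicate 1.

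MXD3 (ENSG00000213347), a family member expressed in dividing cells, had 26.2, 10.0 and 22.3 CPM with Apatinib and 26.0, 27.3 and 31.9 CPM in the controls. Apatinib replicate 2 was the lowest of the 6 samples, and Apatinib replicate 1 lay just above the lowest control. The log2 fold change was -0.54 (SE 0.270), with -0.23 (SE 0.144) without Apatinib replicate 2 and -0.81 (SE 0.272) without Apatinib replicate 1. In FPKM the groups did not overlap, with 3.88 to 10.7 against 11.2 to 12.5. MXD3 shares 926 exon bases with RAB24 on the same strand, and strand cannot tell reads in these bases apart. It shares 1158 with PRELID1 on the opposite strand, where reads cannot be told apart if strand is not used. RAB24 averaged 5.41 CPM with Apatinib and 4.47 CPM in the controls, and PRELID1 41.9 and 40.2 CPM.

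MXD1 (ENSG00000059728), linked to differentiation, had 7.45, 16.2 and 8.19 CPM with Apatinib and 9.76, 7.86 and 8.52 CPM in the controls. Apatinib replicate 2 was again the highest of the 6 samples and Apatinib replicate 1 the lowest. The log2 fold change of 0.29 (SE 0.268) became -0.15 (SE 0.170) without Apatinib replicate 2. It was 0.49 without Apatinib replicate 1 and 0.44 without Apatinib replicate 3. MXD1 shares 237 exon bases with SNRNP27 on the same strand.

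MXD4 (ENSG00000123933), whose promoter stretch with the E-box is printed above, had 126, 69.4 and 102 CPM with Apatinib and 97.1, 95.6 and 121 CPM in the controls. Both the highest and the lowest of the 6 samples were Apatinib replicates. For MXD4 the log2 fold change was -0.08 (SE 0.192). It was -0.29 (SE 0.180) without Apatinib replicate 1, 0.12 (SE 0.146) without Apatinib replicate 2 and 0.04 (SE 0.200) without control replicate 3.

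MNT (ENSG00000070444), the other gene with an E-box and a broadly expressed antagonist, had 32.7, 34.7 and 28.7 CPM with Apatinib and 27.1, 27.9 and 32.3 CPM in the controls. The groups overlapped, with a log2 fold change of 0.14 (SE 0.135). It was 0.08 when Apatinib replicate 2 or control replicate 1 was left out and 0.22 when control replicate 3 was. MNT shares 1065 exon bases with AC006435.1 on the opposite strand. MAX, MXI1 and MXD4 share 80 to 205 exon bases with another annotated gene.

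MLXIP (ENSG00000175727) had 129, 102 and 109 CPM with Apatinib and 116, 116 and 129 CPM in the controls. The groups overlapped, and the log2 fold change was -0.09 (SE 0.127), with -0.19 when Apatinib replicate 1 and -0.01 when Apatinib replicate 2 was left out.

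BASP1 was the 1 of the 9 genes that met the limits used for a differentially expressed gene (DEG), an FDR under 0.05 in edgeR's quasi-likelihood test together with an absolute log2 fold change over 0.5. Over all genes tested, 11.5% met them, 5.97% higher and 5.48% lower with Apatinib. In 2 of the 9, BASP1 and MXI1, the Apatinib replicates did not overlap the controls in CPM, both higher. The groups did not overlap in 33.2% of all genes tested, 17.5% higher and 15.7% lower. Since the same contrast was known when the genes were chosen, nothing is read from these member counts. The median log2 fold change of the 9 genes was 0.14, beside 0.0028 over all genes tested.

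**Figure D2:**
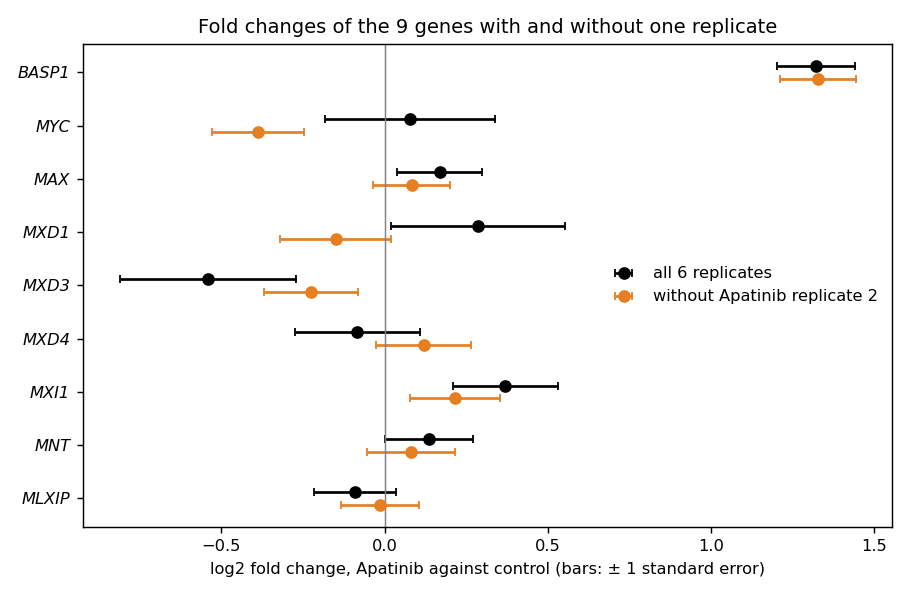
Log2 fold change of Apatinib against control for each of the 9 genes, from all 6 replicates (black) and without Apatinib replicate 2 (orange), with bars of 1 SE. BASP1 stays near 1.3 in both, while MYC moves from 0.08 to -0.39, MXD1 from 0.29 to -0.15 and MXD4 from -0.08 to 0.12.

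Apatinib replicate 2 was the highest or the lowest of the 6 samples for 8 of the 9 genes. It was highest for MYC, MAX, MXD1, MXI1 and MNT, and lowest for MXD3, MXD4 and MLXIP. Over all genes tested it held the highest or lowest value in 44.1%, and Apatinib replicate 1 in 48.7%. BASP1 was the gene of the 9 in which replicate 2 lay inside the range of the others.

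Levels of different genes were compared in FPKM. In the control group the order of the means was MXD4 (19.6), MAX (17), MYC (12.8), MXD3 (12), BASP1 (11.5), MLXIP (10.9), MNT (6.81), MXI1 (5.54) and MXD1 (1.10). MYC, MXD3, BASP1 and MLXIP followed one another with overlapping ranges, as did MNT and MXI1. In the Apatinib group BASP1 came first with 28.6 ± 0.592 FPKM (SD, n = 3), and its range did not overlap that of MAX, the next gene at 18.7 ± 2.0 FPKM. From MAX down to MNT (7.45) every gene overlapped the next one, and MXD1 was last with 1.35.

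The summed FPKM of the 5 antagonists was set against MYC in each sample, as a description of RNA and not of dimers. The sum was 48.2, 36.8 and 44.4 FPKM in the Apatinib replicates and 44.4, 43.2 and 47.5 FPKM in the controls. Divided by MYC, it was 4.70, 1.72 and 5.11 with Apatinib and 3.35, 3.72 and 3.48 in the controls. Apatinib replicates 1 and 3 were above every control and replicate 2 was below every control. BASP1 divided by MYC was 2.75, 1.36 and 3.26 with Apatinib and 0.867, 1.06 and 0.777 in the controls, so all Apatinib replicates were above the controls, replicate 2 least. MXD4 made up 37.2% to 46.9% of the antagonist sum with Apatinib and 41.9% to 45.8% in the controls, and MXD3 made up 10.6% in Apatinib replicate 2 against 22.2% to 28.4% in the other samples.

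**Figure D3:**
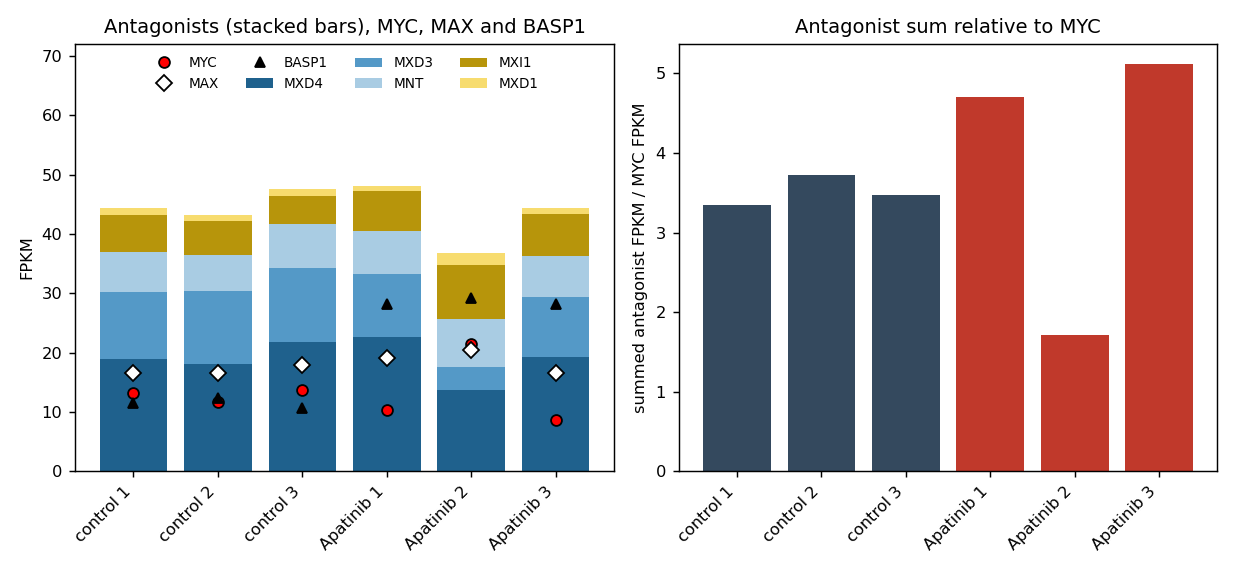
Left, FPKM of the antagonists MXD4, MXD3, MNT, MXI1 and MXD1 stacked in each sample, with MYC (red circles), MAX (white diamonds) and BASP1 (black triangles) on the same axis. Right, the stacked sum divided by MYC FPKM, with controls in dark blue and Apatinib in red, where Apatinib replicate 2 is lowest at 1.72 and Apatinib replicate 3 highest at 5.11.

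The genes with the most similar expression over the 6 samples were named by the distance between log2 CPM profiles after subtracting each gene's mean, among 10328 genes with a mean of at least 10 CPM. For BASP1 they were KRT81, a keratin gene (distance 0.0768), AHNAK2 (0.102) and PHGDH, the first enzyme of serine synthesis (0.114). KRT81 had 67.9 to 79.7 CPM with Apatinib and 28.4 to 29.9 CPM in the controls. For MYC they were DLX2 (0.0706), TRMT61A (0.0889) and PDRG1 (0.0903). Each of these had its highest value in Apatinib replicate 2 and its lowest in Apatinib replicate 3, which reflects their choice by closeness to the MYC profile. DLX2 had 14.7, 29.2 and 11.2 CPM in Apatinib replicates 1, 2 and 3 and 15.5 to 17.3 CPM in the controls. The profiles rest on 6 samples and on the same contrast that served to choose the genes.

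Libraries held 17275850 to 18081919 counts in the Apatinib group and 17043314 to 22067558 in the control group. Mesenchymal markers were expressed in every sample (summed 6448 to 7457 CPM over 5 genes with Apatinib and 5480 to 5878 CPM in the controls). The adipocyte markers summed to 65.4 to 89.5 CPM with Apatinib and 61.4 to 63.0 CPM in the controls. Both sums were higher in every Apatinib replicate, and their part in the values of the 9 genes was not tested. PPARG was at 50.0 to 64.2 CPM and LPL at 8.57 to 23.5 CPM over the 6 samples, while ADIPOQ and FABP4 had no counts. Endothelial, epithelial and leukocyte markers summed to at most 5.94 CPM, and KDR, the gene of VEGFR2, was at 0.183 to 0.621 CPM. Control replicates 1 and 2 were much closer to each other (mean chi-square per gene 2.27) than any other pair of one group (18.2 to 44.5), and fewer genes were called without either of them. The study calls the replicates biological, but nothing in the labels says that these 2 came from separate cultures. If they did not, the SDs and FDRs given here with n = 3 controls include technical spread and are too small. Of the 16290 genes tested, 1866 were DEGs with all samples. Refits were filtered anew and tested 16698 to 16786 genes. There were 292 DEGs with control replicates 1 and 2 summed as 1 sample. There were 275 or 300 when control replicate 1 or 2 was dropped, and 2594 when control replicate 3 was. Calls that were lost without control replicate 1 or 2 are named with the genes.

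The remaining genes of the network were taken from lists of known relatives and targets, with tests adjusted over all 16290 genes. These lists were written with earlier results of these data known, so their counts of called genes are a description and no list was tested as a set. Beside each count stands the share called over all genes tested (11.5%, with 5.97% higher and 5.48% lower). Of the 4 further network factors tested, 1 rose and 1 fell, too few genes to set against those shares. MLXIPL, which encodes the MondoA relative ChREBP, had 11.1, 13.7 and 10.6 CPM with Apatinib and 6.0, 6.38 and 7.05 CPM in the controls. It rose by a log2 fold change of 0.86 (SE 0.172, edgeR FDR = 0.0128). MGA, a MAX-binding repressor, fell by 0.57 on the log2 scale (SE 0.170, edgeR FDR = 0.0473), from 54.0, 48.6 and 40.2 CPM in the controls to 25.3, 32.3 and 38.2 CPM.

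MYCL, a MYC paralog, was counted 35, 47 and 46 times in the treated replicates and 19, 13 and 36 times in the controls. Its log2 fold change of 1.06 (SE 0.327) did not pass (edgeR FDR = 0.0536), although it was called without control replicate 3, with no filter on low counts, and with a filter of at least 10 counts in every sample. MLX, the partner of MondoA, differed by 0.15 on the log2 scale (edgeR FDR = 0.462), and MYCN had no counts in any sample. The call of MLXIPL was lost without control replicate 1 (edgeR FDR = 0.0784) or 2 (edgeR FDR = 0.0711). That of MGA was lost without Apatinib replicate 1 or 2 or control replicate 1 or 2 (edgeR FDR = 0.0805 to 0.204).

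The 2 targets of MondoA were both lower with Apatinib, and 1 passed, too few genes to set against the 5.48% called lower over all genes. Their median of -0.90 was -1.38 without Apatinib replicate 2 and -0.69 without Apatinib replicate 3. TXNIP, an inhibitor of glucose uptake, had 304, 492 and 234 CPM with Apatinib and 600, 537 and 623 CPM in the controls. It fell by 0.77 on the log2 scale (SE 0.22, edgeR FDR = 0.0418). ARRDC4, a related arrestin-domain gene, had 10.5, 29.9 and 12.4 CPM with Apatinib and 39.3, 37.9 and 30.3 CPM in the controls, with a log2 fold change of -1.02 (SE 0.314, edgeR FDR = 0.0532). For both genes Apatinib replicate 2 lay nearest the controls, and without it TXNIP was at -1.12 (SE 0.135, edgeR FDR = 0.00348). The call of TXNIP was lost without Apatinib replicate 1 or 3 or control replicate 1 or 2 (edgeR FDR = 0.0912 to 0.127), and ARRDC4 was called without Apatinib replicate 2 or control replicate 3.

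**Figure D4:**
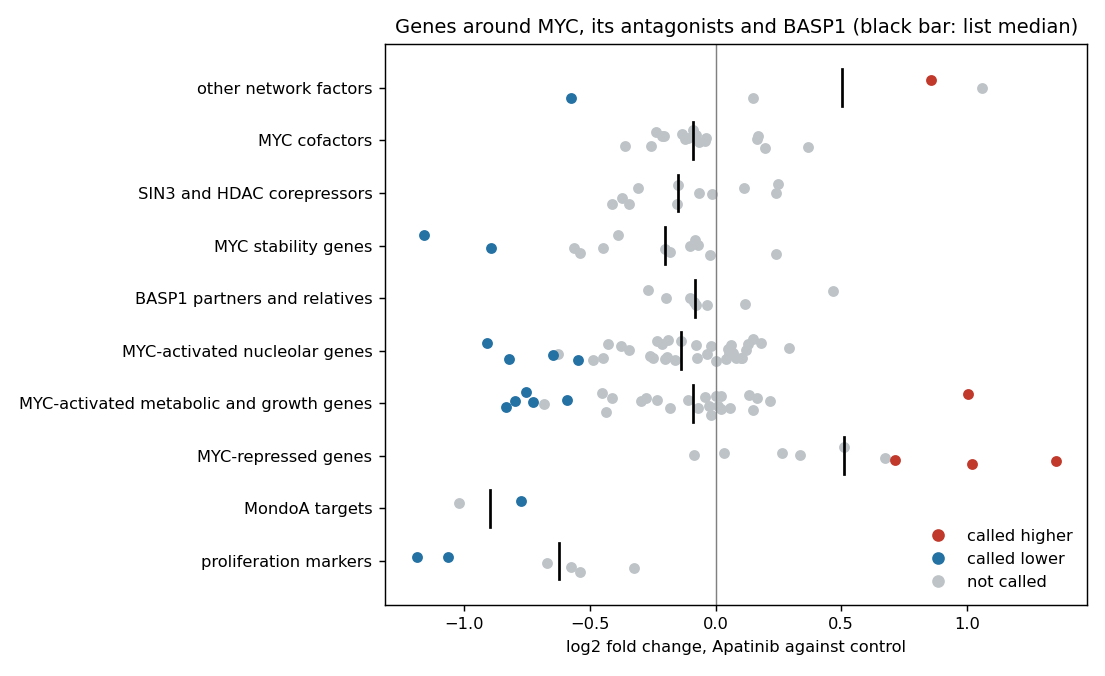
Log2 fold change of Apatinib against control for every tested gene of the 10 lists, with 1 point per gene, red for genes that rose, blue for genes that fell, grey for genes that did not pass, and a black bar at the list median. The medians run from -0.90 for the 2 MondoA targets to 0.51 for the MYC-repressed genes, and the vertical line marks 0.

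Genes that MYC is known to activate in the nucleolus had more negative than positive fold changes, 23 against 14 of 37, with a median of -0.14. Of the 37, 4 fell and none rose, so 10.8% were called, all lower, beside 5.48% called lower and 11.5% called either way over all genes. The 4 that fell were MPHOSPH10 (-0.91, edgeR FDR = 0.0131), DDX18 (-0.65, edgeR FDR = 0.0152), NOP58 (-0.82, edgeR FDR = 0.0242) and UTP20 (-0.55, edgeR FDR = 0.0332), which act in ribosome assembly. NCL, the nucleolin gene, was at -0.45 on the log2 scale (edgeR FDR = 0.0303) and stayed under the fold limit. The mean log2 CPM of the list was 5.465, 5.571 and 5.388 in the Apatinib replicates and 5.647 to 5.658 in the controls. In each of the 4 called genes control replicate 3 was the lowest control. NOP58 had 84.0, 90.1 and 55.7 CPM in control replicates 1, 2 and 3 and at most 50.3 CPM with Apatinib. MPHOSPH10 had 33.6, 39.5 and 23.5 CPM against at most 18.4 CPM. UTP20 had 82.3, 85.7 and 65.7 CPM against at most 58.8 CPM, and DDX18 112, 112 and 90.7 CPM against at most 75.3 CPM. No gene of this list was called without control replicate 1 or without control replicate 2, and without Apatinib replicate 1 the calls were MPHOSPH10 and BOP1. UTP20 was not called without Apatinib replicate 2 (edgeR FDR = 0.0513).

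Of 28 metabolic and growth genes known to be activated by MYC, 1 rose and 5 fell (21.4% called, beside 11.5% over all genes), with a median of -0.09 that lay between -0.16 (without Apatinib replicate 1) and -0.03 (without control replicate 3). SHMT2, a mitochondrial serine enzyme, rose (1.01, edgeR FDR = 0.0139). LDHA, lactate dehydrogenase A (-0.76, edgeR FDR = 0.0166), EIF4E, the cap-binding initiation factor (-0.73, edgeR FDR = 0.0179), and HSPD1, a mitochondrial chaperone (-0.59, edgeR FDR = 0.0199), fell, as did CDC25A and TFRC. LDHA had 1561, 1017 and 1487 CPM with Apatinib and 2211, 2176 and 2474 CPM in the controls, with Apatinib replicate 2 lowest. None of these 6 calls held without control replicate 1 or without control replicate 2. Without Apatinib replicate 1, SHMT2, LDHA and CDC25A were called, and without Apatinib replicate 2 HSPD1 was under the fold limit (-0.48). HSPD1 shares 281 exon bases with HSPE1 on the opposite strand. SHMT2 shares 427 with AC137834.2 and 33 with NDUFA4L2, both on the opposite strand. EIF4E shares 171 with TBCAP3 on the same strand and 62 with AC019131.1 on the opposite strand.

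Of 9 genes known to be repressed by MYC, 3 rose and none fell (33.3% called, beside 5.97% called higher and 11.5% called either way over all genes), with a median of 0.51, or 0.25 without Apatinib replicate 1. CDKN1C, a cyclin-dependent kinase inhibitor, had 34.1, 24.1 and 27.8 CPM with Apatinib and 13.6, 11.9 and 16.8 CPM in the controls. It rose by 1.02 (SE 0.176, edgeR FDR = 0.00776). CDKN1A, which encodes p21, rose by 0.72 (edgeR FDR = 0.0308) and GADD45A, a growth-arrest gene, by 1.35 (edgeR FDR = 0.0383), with 33.7, 96.5 and 27.4 CPM in the Apatinib replicates and 19.6 to 22 CPM in the controls. Without Apatinib replicate 2, GADD45A was at 0.57 (SE 0.135, edgeR FDR = 0.0305). Without control replicate 1 or 2, CDKN1C was the gene of the list still called. CDKN1A was not called without Apatinib replicate 1 (edgeR FDR = 0.0620) or 2 (edgeR FDR = 0.0582), and GADD45A was not called by DESeq2 (adjusted p = 0.0790). With limma on FPKM the calls were CDKN1C and FTH1, the ferritin heavy chain gene, and not CDKN1A or GADD45A. NDRG2 did not pass (0.34, edgeR FDR = 0.109).

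**Figure D5:**
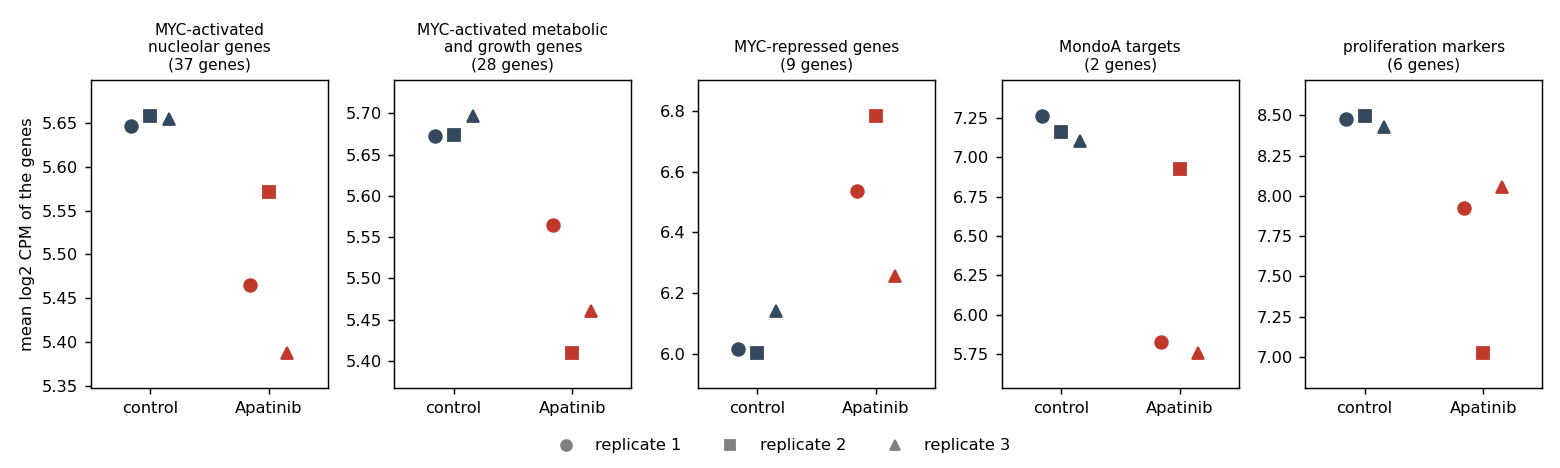
Mean log2 CPM of the tested genes of 5 lists in each replicate, with circles, squares and triangles for replicates 1, 2 and 3 and an axis of its own for each panel that does not start at 0. Apatinib replicates lie below the controls in the nucleolar, metabolic, MondoA and proliferation panels and above them in the MYC-repressed panel, where replicate 2 is highest at 6.783.

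The 6 proliferation markers were all lower (median -0.62, or -0.32 without Apatinib replicate 2), and 2 fell (33.3% called, beside 5.48% called lower and 11.5% called either way over all genes), MKI67 (-1.19, edgeR FDR = 0.0108) and TOP2A (-1.07, edgeR FDR = 0.0218). CCNA2 (-0.57, edgeR FDR = 0.0668) and MCM2 (-0.54, edgeR FDR = 0.105) did not pass. DESeq2 called both, as did edgeR with no filter on low counts, and CCNA2 was also called without Apatinib replicate 3. The mean log2 CPM of these markers was 7.026 in Apatinib replicate 2, below 7.925 and 8.057 in the other two and 8.426 to 8.497 in the controls. Their part in the levels of the MYC targets was not tested. The call of TOP2A was lost without Apatinib replicate 1 or control replicate 1 or 2 (edgeR FDR = 0.0598 to 0.0910).

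Of 13 genes that control MYC protein stability, 12 had negative fold changes, with a median of -0.20, beside 0.0028 over all genes tested. The list mixes genes that stabilise MYC with genes that target it for breakdown, so neither value gives a net direction for MYC protein. Of the 13, 2 fell, so 15.4% were called, all lower, beside 5.48% called lower and 11.5% called either way over all genes. USP37, a deubiquitinase known to stabilise MYC, had 11.5, 15.0 and 14.4 CPM with Apatinib and 25.5, 26.9 and 23.6 CPM in the controls, and fell by 0.89 on the log2 scale (SE 0.149, edgeR FDR = 0.00709). KIAA1524, which encodes the PP2A inhibitor CIP2A, fell by 1.16 (SE 0.218, edgeR FDR = 0.0103), and its call was lost without control replicate 1 (edgeR FDR = 0.0539) or 2 (edgeR FDR = 0.0508). PLK1 (-0.54, edgeR FDR = 0.0877) and FBXW7, the ubiquitin ligase subunit that targets MYC (-0.45, edgeR FDR = 0.0892), did not pass. PLK1 was called by DESeq2, with no filter on low counts and without Apatinib replicate 1, and FBXW7 without control replicate 3. USP37 shares 3045 exon bases with VIL1 on the opposite strand.

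No gene passed among 17 MYC cofactors, 11 SIN3 and HDAC corepressors and 8 tested partners and relatives of BASP1 in edgeR's quasi-likelihood test. At an unadjusted p under 0.05 there were 2, 4 and 1, beside 30.6% of all genes tested, and DESeq2 and limma called none. With 1 replicate left out, ZBTB17 and HDAC2 were called without Apatinib replicate 3 and NMT2 without Apatinib replicate 2. The smallest p values belonged to SMARCC1 (-0.36), ZBTB17 (0.37), ACTL6A (-0.26) and CCNT1 (-0.24) among the cofactors, with edgeR FDR from 0.0513 to 0.251. Among the corepressors they belonged to SIN3A (-0.31), HDAC2 (-0.41), SAP30 (-0.37) and RBBP7 (-0.35), with edgeR FDR from 0.0895 to 0.136. For the partners and relatives of BASP1, the smallest p belonged to the myristoyltransferase gene NMT2 (0.47, edgeR FDR = 0.0598). WT1, which BASP1 binds as a corepressor, had 2 to 11 counts per sample and GAP43 had none, so neither was tested.

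CACGTG was present in the promoters of 13 of the 29 nucleolar genes with a promoter entry (44.8%), 13 of 23 metabolic and growth genes (56.5%) and 0 of 6 MYC-repressed genes. The share was 33.3% for the stability genes and for the proliferation markers, 27.3% for the cofactors, 11.1% for the corepressors, 1 of 2 for the MondoA targets, 1 of 5 for the further network factors and 0 of 7 for the BASP1 partners and relatives. It was present in 12.5% of all tested genes with an entry, in 12.1% of those that rose and in 10.1% of those that fell.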

How the data were processed

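RNA sequencing of SW872 cells was analysed in 3 Apatinib and 3 control replicates, which the study's methods call biological. The authors deposited whole-number counts for 57773 genes and, in separate files, FPKM values for each sample. The submitters' processing notes name STAR 2.7.1a, CASAVA and build hg19. The counting program and annotation are not given in the sources used here. In 1 file a column headed as another sample was not used. The members and lists were chosen with earlier results of these data known.

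Testing used edgeR 4.0.16 under R 4.3.3. After filtering by filterByExpr, libraries were TMM-scaled, and the quasi-likelihood F test was adjusted by the Benjamini-Hochberg method over 16290 genes. CPM used the TMM factors, and log2 CPM a prior count of 2. The SE is the log2 fold change divided by the square root of F. The study used DESeq2, which was an alternative here (1.42.0), as was limma (3.58.1) on log2(FPKM + 1), or with 0.1 added, over genes with a mean above 0.5 FPKM. Other alternatives were DESeq2 size factors, no filter, at least 10 counts in every sample, no fold limit, a replicate block, summing control replicates 1 and 2, and leaving out each replicate.

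Named were the 9 members, every further network factor and MondoA target, the 4 tested genes with the smallest p in each other list, and for BASP1 and MYC the 3 closest profiles. Among the partners and relatives of BASP1, only the first of these is reported here. UTP20, BOP1, FTH1, CDC25A and TFRC were named after their values were seen, as were RAB24 and PRELID1. Exon overlaps came from GENCODE 29 and promoters from RefSeq (GRCh38.p14). No coordinates from hg19 were used.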

Additional observations from a re-analysis of the deposited data

How the results depend on the processing

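The log2 fold change of BASP1 lay between 1.25 and 1.33 under the alternatives that kept all samples, a description only, since BASP1 was selected on this contrast. The count of DEGs, 1866, was 292 with control replicates 1 and 2 summed, 796 with limma on FPKM, and 275 (without control replicate 1) to 2594 (without control replicate 3) when 1 replicate was left out. Called members were 2 with no filter, MXD3 being added, and 1 whichever replicate was left out. With control replicates 1 and 2 summed, the calls were 0 further network factors, 1 stability gene, 0 nucleolar genes, 0 metabolic and growth genes, 1 MYC-repressed gene, 0 MondoA targets and 1 proliferation marker. With limma they were 0 network factors, 1 stability gene, 2 nucleolar genes, 3 metabolic and growth genes, 0 MondoA targets, 1 proliferation marker and 2 MYC-repressed genes, CDKN1C and FTH1. With no filter they were 3 network factors, 4 stability genes, 5 MYC-repressed genes, 2 MondoA targets and 5 proliferation markers, and DESeq2 called 4 proliferation markers. Leaving out 1 replicate gave 0 to 3 network factors, 0 to 1 cofactors, corepressors and BASP1 partners, 1 to 3 stability genes, 0 to 6 nucleolar genes, 0 to 7 metabolic and growth genes, 1 to 4 MYC-repressed genes, 0 to 2 MondoA targets and 1 to 3 proliferation markers, the lowest mostly without control replicate 1 or 2. The cause was not tested. MYC was at -0.04 and -0.05 with limma. The replicate numbers did not pair the samples (correlations of deviations -0.259, 0.0808 and -0.22), and with the replicate block 2 members (BASP1 and MXD3), 3 network factors (MYCL added), 4 stability genes, 2 MondoA targets and 5 proliferation markers were called, and MYC was at -0.02.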
